A study of Trichoderma asperellum with 12 samples.

Results

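The genes described here are those of the mitochondrial respiratory chain and ATP synthase of Trichoderma asperellum TJ01, a soil fungus used in biological control. They are the genes whose first KEGG orthology description (KEGG is a database of pathways and orthologous genes) names a NADH dehydrogenase, complex III, cytochrome c oxidase, the F-type ATPase or an alternative oxidase, with succinate dehydrogenase left out. The rule found 80 of the 11647 genes in the table. They were 25 entries for complex I, 6 for complex I assembly factors, 6 for type II NADH dehydrogenases, 7 for complex III, 7 for complex IV, 14 for complex IV assembly factors and 15 for complex V. In 11 of the 80, another gene of the genome matched the same KEGG entry with a higher score, and these are called second copies below. The name does not mean a near duplicate. The score was 118 bits for that of flavoprotein 1 of complex I, against 967 for the best match. It was 100 against 526 for Fe-S protein 3 and 120 against 974 for the alpha subunit of complex V. The type II genes jgi_Trias1_85260, jgi_Trias1_62885, jgi_Trias1_57333 and jgi_Trias1_205609 are also among the 11. No first KEGG description named an alternative oxidase.

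Oxidative phosphorylation makes ATP from the electrons of NADH and succinate. Complex I takes electrons from NADH and pumps protons across the inner mitochondrial membrane, and complex II takes them from succinate without pumping. Ubiquinone carries the electrons to complex III, cytochrome c carries them on to complex IV, and complex IV gives them to oxygen. Complex V, the F-type ATPase, lets the protons flow back and makes ATP. Fungi often have type II NADH dehydrogenases as well, single proteins that pass electrons from NADH to ubiquinone without pumping protons, and many have an alternative oxidase that passes electrons from ubiquinone straight to oxygen. Complex IV holds copper and heme A, and dedicated assembly factors insert them.

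Mycelium of the single strain TJ01, grown from spores, was moved to Burk broth with 0 (control), 100, 500 or 1000 μg/mL of dichlorvos, an organophosphate insecticide, and shaken at 180 rpm and 28 °C for 24 h. Each dose has 3 libraries of total RNA, 12 in all, and expression is given in FPKM, that is, mapped fragments scaled to the length of the transcript and to the size of the library. The study states that each experiment was done 3 times, without saying how these repeats map to the libraries. The labels do not say whether the 3 libraries of a group came from separate cultures. The p-values therefore measure the spread between these libraries, which may be technical. Bulk RNA cannot tell fewer cells from less RNA per cell.

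Control replicate 1 stood apart from the other control libraries. On log2(FPKM + 1) its correlation with them was 0.895 to 0.897, against 0.984 between the other control libraries, and its median FPKM over the genes tested was 25.7, against 15.2 and 16.4. In complex I, all 24 subunit entries tested were higher in control replicate 1 than in the mean of the other control libraries, with a median log2 difference of 0.94, and so were all 6 of its assembly factors, with a median of 1.12, beside 0.52 over all genes. The main counts of members below are therefore given over 12 libraries and over the 11 without control replicate 1. For single genes and other lists, only some of the calls that change over 11 libraries are given. Spores could be present in the mycelium, so genes whose annotation names conidia, conidiation, sporulation or hydrophobin were listed. Of these, 9 of 12 passed the filter and none was at 0 in all libraries. Whether the list, which includes hydrophobins, marks spores here was not tested. Their summed level was 33103 to 36071 FPKM at 1000 μg/mL and 10929 to 20781 FPKM in the control. Of the 9, limma called 3 higher at the highest dose and 3 lower (24.3% and 13.2% of all genes), and their part in the results was not tested.

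The respiratory genes were among the better expressed of this fungus. Of the 80 members, 78 had a mean of at least 1 FPKM over all libraries and were tested, and 30 were among the 1000 genes with the highest mean. The median of the members' means was 120 FPKM, against 22.3 FPKM over all 8916 genes tested. The median was 320 FPKM for complex V, 561 FPKM for complex IV, 268 FPKM for complex III, 112 FPKM for complex I and 50.9 FPKM for the type II NADH dehydrogenases. For the assembly factors it was 76 FPKM in complex IV and 28.9 FPKM in complex I. Summed over all members, the share of a library's FPKM was 1.57 to 1.78% at 1000 μg/mL and 1.63 to 2.26% in the control, so the groups overlapped. At 500 μg/mL it was 1.51 to 1.57%, below all control libraries.

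At each dose most members did not pass the test, and those that did went both ways. At 1000 μg/mL, limma (12 libraries, adjusted p under 0.05 over all genes) called 8 of 78 members higher (10.3%) and 13 lower (16.7%), against 24.3% of all genes tested that were higher and 13.2% that were lower. At 500 μg/mL 4 members were higher and 5 lower, with 13.5% of all genes called higher and 7.00% lower. At 100 μg/mL limma called 0 members in either direction, with 5.26% of all genes called higher and 1.02% lower. At an unadjusted p under 0.05 it was 2 higher and 0 lower, where 1096 and 545 of the 8916 genes tested were. The study's NOISeq rule, recomputed here from its definition on FPKM, called 0 members (1.11% of all genes higher and 0.352% lower). This version called fewer genes higher at each dose than the study reported, so its counts are not the study's own. The share of members called lower was near that of all genes, and the share called higher was below it.

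Where an absolute log2 fold change above 1 was also asked for, 5 members were higher and 2 lower at 1000 μg/mL, with 19.2% and 7.81% of all genes, and 2 were higher and 0 lower at 500 μg/mL, with 10.6% and 3.48% of all genes. The 5 were COX17, COA6, the second copy of flavoprotein 1 of complex I and the type II NADH dehydrogenases jgi_Trias1_85260 and jgi_Trias1_57333, and the pair that fell was COA2 and jgi_Trias1_69675. NOISeq called 1 member higher and 0 lower at 1000 μg/mL, with 5.25% and 2.94% of all genes, and 1 higher and 0 lower at 500 μg/mL, with 2.82% and 1.23% of all genes. By the ranges alone, 11 members had all libraries at 1000 μg/mL above the control and 18 had all below it, where 26.5% and 17.2% of all genes did. At 500 μg/mL these counts were 5 and 19, with 19.4% and 12.5% of all genes, and at 100 μg/mL 3 and 5, with 12.5% and 7.73%.

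Leaving out control replicate 1 changed the number called higher far more than the number called lower. Over 11 libraries, 27 members were higher and 14 lower at 1000 μg/mL, with 38.3% of all genes called higher and 16.3% lower. At 500 μg/mL 11 were higher and 8 lower, with 29.4% and 12% of all genes, and at 100 μg/mL 2 were higher and 0 lower, with 13.5% and 3.32%. NOISeq without that library called 5 members higher and 2 lower at 1000 μg/mL (10.7% and 4.37% of all genes), 2 higher and 0 lower at 500 μg/mL (6.50% and 2.31%) and 0 at 100 μg/mL (2.94% and 0.481%). All 13 members called lower over 12 libraries were also called over 11, as were 7 of the 8 called higher. The median log2 fold change at 1000 μg/mL was -0.01 over the members and 0.18 over all genes with 12 libraries, and 0.26 and 0.37 with 11. When each library was centred on its own median, which takes out this general shift, 3 members were higher and 25 lower over 12 libraries, with 19.6% and 22.7% of all genes, and 5 higher and 31 lower over 11, with 23.3% and 30.6%. In all of these 4 fits, the calls at 1000 μg/mL had 3 members in common that were higher and 13 that were lower. The 3 were complex IV assembly factors, and the 13 were 6 complex IV assembly factors, 2 subunits of complex IV, 2 of complex V, 1 of complex III and 2 type II NADH dehydrogenases.

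**Figure D1:**
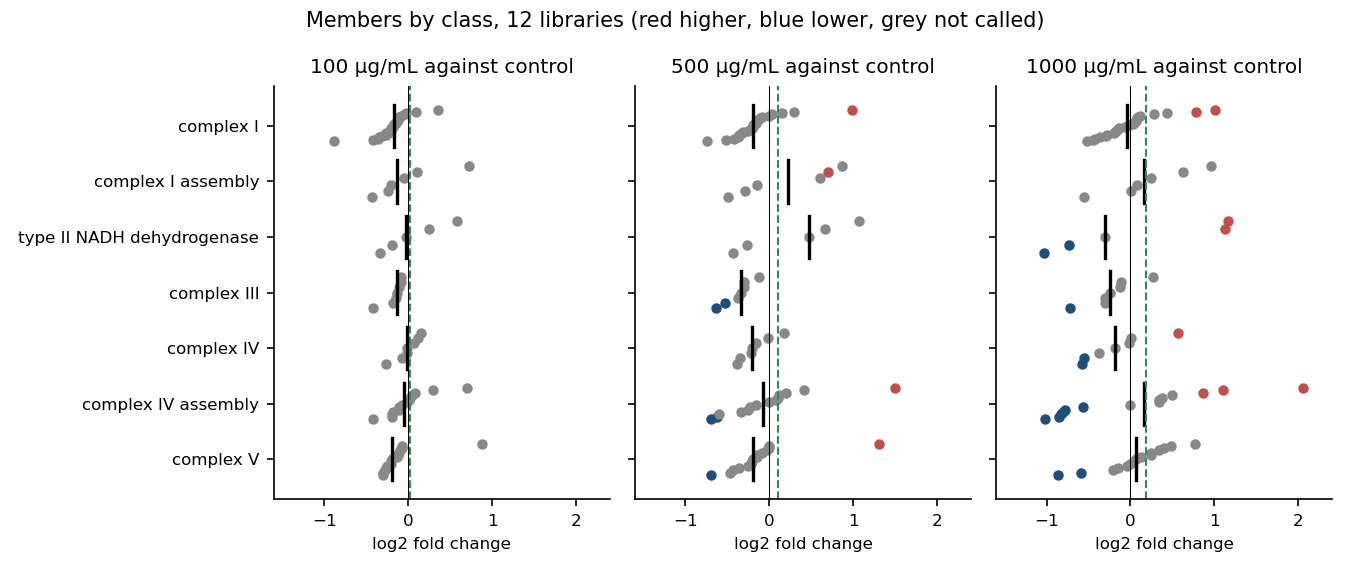
Log2 fold change (x axis, on log2(FPKM + 1)) of each tested member against the control at 100, 500 and 1000 μg/mL, by class (y axis), over 12 libraries. Red points were called higher and blue points lower, grey points were not called, black bars are class medians and the green dashed line is the median over all genes tested; at 1000 μg/mL 8 members are red and 13 blue, 9 of these 21 among the complex IV assembly factors.

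The assembly factors of complex IV held the most calls of any class. At 1000 μg/mL 3 of the 14 were higher and 6 lower, where 24.3% of all genes were higher and 13.2% lower. These 9 were called in the same direction in all 4 fits. Over the 4 groups, the moderated F-test of limma called 10 of the 14, where it called 19 of all 78 members and 34.0% of all genes (11 of the 14 and 56.9% of all genes over 11 libraries). Their median log2 fold change was 0.16 at 1000 μg/mL over 12 libraries, and their summed share of the library was 0.135 to 0.148% at 1000 μg/mL and 0.136 to 0.152% in the control.

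COX17 (jgi_Trias1_66748), in yeast the copper chaperone that supplies the other copper proteins of complex IV assembly, rose the most. It was at 62.6, 98.2 and 105 FPKM in the control, 118, 136 and 176 FPKM at 100 μg/mL, 236, 268 and 238 FPKM at 500 μg/mL, and 383, 374 and 337 FPKM at 1000 μg/mL. Each dose lay wholly above the dose before it. It was the only member whose groups were separated in this way, 1 of 78 (1.28%), where 2.28% of all genes tested were, and 0 members fell in this way, where 0.561% of all genes did. The mean was 365 ± 24.4 FPKM at 1000 μg/mL and 88.5 ± 22.7 FPKM in the control (SD, n = 3 each), a ratio of 4.12. The change on the log2 scale was 2.06 (standard error, SE, 0.22, limma adjusted p = 1.19e-05) at 1000 μg/mL and 1.50 (SE 0.22, adjusted p = 0.0004) at 500 μg/mL, and 0.70 with adjusted p = 0.0769 at 100 μg/mL. Without control replicate 1, its lowest library, the COX17 value at 1000 μg/mL was 1.83, and it was called at 500 and 1000 μg/mL whichever library was left out.

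COX19 (jgi_Trias1_23035), a small cysteine-rich protein of the intermembrane space that works in copper delivery in yeast, had 123, 151 and 116 FPKM at 1000 μg/mL and 96, 60.1 and 61.4 FPKM in the control. All 3 treated libraries were above the controls, and its change on the log2 scale was 0.86 (SE 0.22, limma adjusted p = 0.00785). It was not called at 500 μg/mL, where the libraries had 82.9, 77.7 and 84.3 FPKM. COA6 (jgi_Trias1_55586), which in yeast takes part in building the copper site of the subunit that receives electrons from cytochrome c, had 44.4, 49.5 and 43.1 FPKM at 1000 μg/mL and 39.9, 14.8 and 14.7 FPKM in the control. Control replicate 1 was close to the treated libraries, and the COA6 change on the log2 scale was 1.10 (SE 0.34, adjusted p = 0.0232) with it and 1.56 (SE 0.22, adjusted p = 8.72e-05) without it. The COA6 call was lost without control replicate 2 (0.88) or 3 (0.87) and without 1000 μg/mL replicate 1 (1.12), 2 (1.05) or 3 (1.14). Over 11 libraries COA6 was also called higher at 500 μg/mL. COA4 (jgi_Trias1_133608), another small protein of that family, was not called against the control over 12 libraries but was higher at 1000 than at 100 μg/mL, with 55.9, 59.6 and 52.7 FPKM against 26.3, 34.4 and 27.8 FPKM (log2 fold change 0.91, adjusted p = 0.00994).

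Another 6 of the factors fell at 1000 μg/mL. COX15 (jgi_Trias1_132841), the enzyme that completes heme A, had 59.9, 68.4 and 71 FPKM at 1000 μg/mL and 81.5, 136 and 134 FPKM in the control, a log2 fold change of -0.78 (SE 0.21, limma adjusted p = 0.0113) over 12 libraries and -1.02 over 11. It was already lower at 500 μg/mL, with 66.5, 64.8 and 79.2 FPKM (log2 fold change -0.70, adjusted p = 0.0317), a call lost without control replicate 2 or 3 or 500 μg/mL replicate 1 or 2 (-0.94 to -0.57 over all libraries left out). At 100 μg/mL, with 106, 115 and 98.3 FPKM, it was not called. COA1 (jgi_Trias1_141716), which in yeast acts early on the largest core subunit of complex IV and was the assembly factor with the highest mean, had 273, 252 and 268 FPKM at 1000 μg/mL and 315, 454 and 426 FPKM in the control. On the log2 scale its change was -0.57 (adjusted p = 0.0195), a call lost without control replicate 2 (-0.47) or 3 (-0.52) and without 1000 μg/mL replicate 2 (-0.54) or 3 (-0.58). Over 11 libraries COA1 was also called lower at 500 μg/mL.

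COA2 (jgi_Trias1_86801), a yeast assembly factor, had the lowest log2 fold change of the class, -1.02 (SE 0.27, limma adjusted p = 0.00951), with 19.7, 39.4 and 26 FPKM at 1000 μg/mL and 74, 45.1 and 53.5 FPKM in the control. COA3 (jgi_Trias1_53372), which in yeast ties the making of the largest core subunit to assembly, had 46.4, 60.1 and 54.1 FPKM at 1000 μg/mL and 103, 64.4 and 124 FPKM in the control. The COA3 log2 fold change was -0.80 (adjusted p = 0.0155), and the call was lost without control replicate 3 or without 1000 μg/mL replicate 1, with values of -1.07 to -0.60 over all libraries left out. COX16 (jgi_Trias1_138971) had 91.9, 68.1 and 88.4 FPKM at 1000 μg/mL and 119, 142 and 187 FPKM in the control (log2 fold change -0.83, adjusted p = 0.00554), and was also called at 500 μg/mL (-0.62, adjusted p = 0.0422), a call that of the 12 fits with a library left out was kept only without control replicate 1 or 1000 μg/mL replicate 2 (-0.77 to -0.45). COX23 (jgi_Trias1_143345), a relative of COX17 in yeast, had 51.4, 52.5 and 38.6 FPKM at 1000 μg/mL and 68.9, 94.2 and 96.2 FPKM in the control (log2 fold change -0.85, adjusted p = 0.00452). In all 6 of these genes no treated library at 1000 μg/mL reached the lowest control library, a gap that 17.2% of all genes tested had. The 6 were picked as called lower from the same values, so this gap is not separate evidence.

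The other assembly factors of complex IV were not called against the control over 12 libraries. COX11 (jgi_Trias1_61512), which in yeast inserts copper into the core subunit, had 60.7, 69.2 and 55.6 FPKM at 1000 μg/mL and 54.2, 39.4 and 53.3 FPKM in the control, a log2 fold change of 0.34 (limma adjusted p = 0.189). COA5 (jgi_Trias1_93025) had 84.6, 97.2 and 69.9 FPKM at 1000 μg/mL and 58.6, 99.1 and 101 FPKM in the control (log2 fold change -0.01, adjusted p = 0.984). Over 11 libraries COA4, COX20 (jgi_Trias1_132926) and the second copy of COX11 (jgi_Trias1_192311) were also called higher, with log2 fold changes of 0.76, 0.65 and 0.79.

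**Figure D2:**
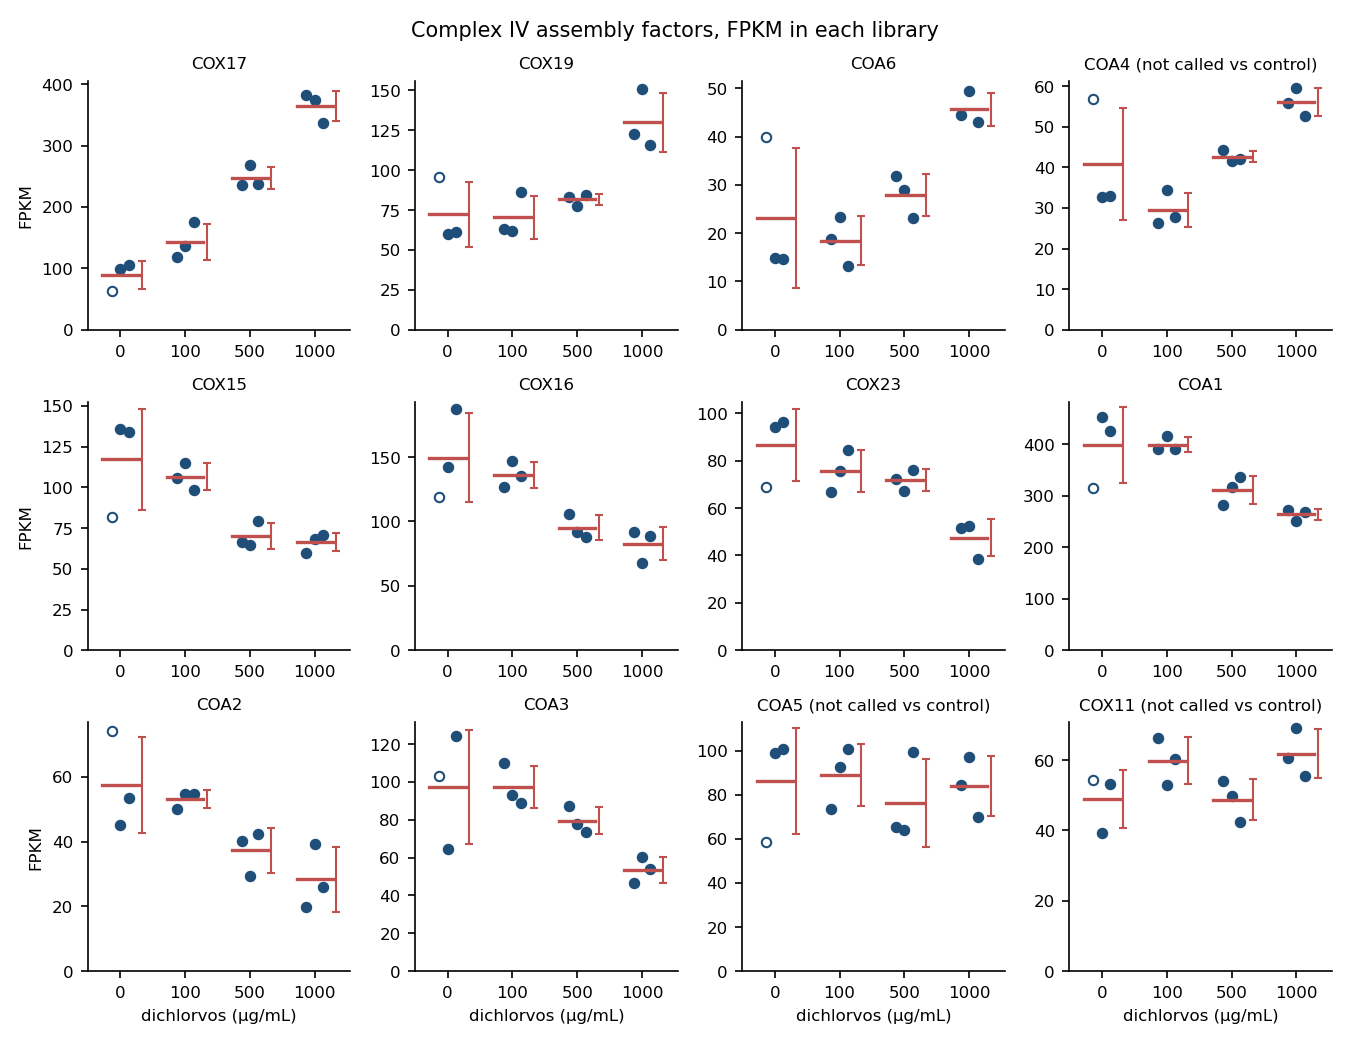
FPKM (y axes, each from 0) of 12 of the 14 complex IV assembly factors in the 12 libraries by dichlorvos dose (x axes, μg/mL). Points are libraries, the open circle is control replicate 1, red lines are means and bars 1 SD (n = 3). COX17 climbs at each dose to 337 to 383 FPKM at 1000 μg/mL, against 62.6 to 105 FPKM in the control. COX15, COX16, COX23, COA1, COA2 and COA3 lie below every control library at 1000 μg/mL, as 17.2% of all genes tested did.

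Of the 7 subunits of complex IV itself, 1 was higher and 2 were lower at 1000 μg/mL over 12 libraries (24.3% and 13.2% of all genes). The most abundant, subunit 6a (jgi_Trias1_158837), had 852, 930 and 932 FPKM at 1000 μg/mL and 905, 874 and 908 FPKM in the control, with a log2 fold change of 0.01 (95% interval -0.33 to 0.36 from limma). Subunit 5a (jgi_Trias1_164899) was lower at 1000 μg/mL, with 643, 662 and 647 FPKM against 839, 1027 and 1011 FPKM in the control (log2 fold change -0.55, SE 0.16, limma adjusted p = 0.0186). It was not called at 100 μg/mL, where it had 986, 1129 and 1000 FPKM, and the call at 1000 μg/mL was lost without control replicate 2 or 3 or without 1000 μg/mL replicate 1 or 3 (values from -0.65 to -0.50 over all libraries left out). Subunit 6b (jgi_Trias1_56422), which lies on the side facing the intermembrane space, had 284, 324 and 321 FPKM at 1000 μg/mL and 430, 500 and 457 FPKM in the control, a log2 fold change of -0.58 (adjusted p = 0.0117) that stayed called whichever library was left out. At 500 μg/mL it was called lower over 11 libraries and not over 12.

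Subunit 7 (jgi_Trias1_31551) was the only complex IV subunit called higher at 1000 μg/mL, with 261, 312 and 266 FPKM against 212, 162 and 191 FPKM in the control (log2 fold change 0.57, limma adjusted p = 0.0132). That call did not hold when libraries were centred on their medians (0.31 over 12 libraries, 0.18 over 11), nor without control replicate 2 (0.47) or 1000 μg/mL replicate 2 (0.49). Subunits 4, 5b and 7c were not called over 12 libraries, with log2 fold changes of -0.18 for subunit 4 (jgi_Trias1_275051), -0.37 for subunit 5b (jgi_Trias1_71551) and -0.02 for subunit 7c (jgi_Trias1_58963). Subunit 5b was called lower over 11 libraries (-0.41, limma adjusted p = 0.0187). As a sum, complex IV took 0.334 to 0.378% of a library's FPKM at 1000 μg/mL and 0.428 to 0.437% in the control, so that the groups did not overlap. Its share of 0.369 to 0.383% at 500 μg/mL was also below all control libraries.

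In complex III, which passes electrons from ubiquinol to cytochrome c, the Rieske iron-sulfur protein (jgi_Trias1_144539) was called lower at both upper doses. It had 459, 427 and 478 FPKM in the control, 344, 441 and 459 FPKM at 100 μg/mL, 295, 277 and 299 FPKM at 500 μg/mL and 267, 291 and 271 FPKM at 1000 μg/mL. The upper pair of doses lay below all control libraries and below all libraries at 100 μg/mL. On the log2 scale its change was -0.72 (SE 0.16, limma adjusted p = 0.00381) at 1000 μg/mL and -0.64 (adjusted p = 0.0133) at 500 μg/mL, and -0.71 at 1000 μg/mL without control replicate 1. The call at 1000 μg/mL held whichever library was left out, and that at 500 μg/mL was lost without 500 μg/mL replicate 2 (-0.61). As a sum, complex III took 0.174 to 0.179% of a library's FPKM at 500 μg/mL and 0.213 to 0.259% in the control, so that those groups did not overlap, and 0.181 to 0.213% at 1000 μg/mL.

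Cytochrome c1 (jgi_Trias1_188395), the heme subunit that hands electrons to cytochrome c, was over 12 libraries called lower at 500 μg/mL alone, with 215, 218 and 218 FPKM against 380, 293 and 279 FPKM in the control (log2 fold change -0.53, limma adjusted p = 0.0405). This value was -0.40 without control replicate 1 (adjusted p = 0.036). Of the 12 fits with a library left out, those without control replicate 1 or 3 or without 1000 μg/mL replicate 2 kept the call, and the values ran from -0.62 to -0.40. Subunit 8 (jgi_Trias1_58443), the most abundant, had 509, 582 and 527 FPKM at 1000 μg/mL and 448, 458 and 437 FPKM in the control (log2 fold change 0.27, adjusted p = 0.193). Core subunit 2 and subunits 6, 7 and 9 were not called at any dose over 12 libraries, with log2 fold changes at 1000 μg/mL of -0.25 for core subunit 2 (jgi_Trias1_47787), -0.30 for subunit 6 (jgi_Trias1_162781), -0.12 for subunit 7 (jgi_Trias1_58429) and -0.11 for subunit 9 (jgi_Trias1_61677). After centring on library medians, cytochrome c1 (-0.55), core subunit 2 (-0.51) and subunit 6 (-0.55) were also called lower at 1000 μg/mL. At 500 μg/mL, 6 of the 7 complex III subunits had all libraries below the control, where 12.5% of all genes did. Core subunit 2 was called lower at 500 μg/mL in both centred fits. Subunits 6, 7 and 8 were called lower there only when centred over 11 libraries.

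Complex V was the most abundant class in sum. At 1000 μg/mL 2 of its 15 subunit entries were called over 12 libraries, both lower (13.2% of all genes were lower and 24.3% higher). The catalytic beta subunit (jgi_Trias1_83653) had 944, 1138 and 1046 FPKM at 1000 μg/mL and 1472, 1054 and 1109 FPKM in the control, and the alpha subunit (jgi_Trias1_59705) had 816, 963 and 847 FPKM against 1236, 855 and 868 FPKM. In both, control replicate 1 was the highest of these libraries and the other controls lay within the range of the treated ones. Their log2 fold changes were -0.21 (limma adjusted p = 0.407) for beta and -0.15 (adjusted p = 0.55) for alpha, and -0.06 and 0.02 without control replicate 1. With that library left out and the rest centred on their medians, both were called lower at 1000 μg/mL (beta -0.54, alpha -0.46). At 500 μg/mL beta had 931, 851 and 820 FPKM and alpha 763, 686 and 710 FPKM. Both lay below all control libraries there, as 12.5% of all genes did, and at 100 μg/mL, as 7.73% did. Uncentred, neither was called at these doses over 12 or 11 libraries. At 500 μg/mL both, and the gamma subunit (jgi_Trias1_53606), were called lower in both centred fits.

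Subunit c (jgi_Trias1_55549), which forms the rotating ring in the membrane, was called lower at 1000 μg/mL and not at 100 or 500 μg/mL. It had 435, 360 and 310 FPKM in the control, 309, 410 and 314 FPKM at 100 μg/mL, 367, 309 and 429 FPKM at 500 μg/mL, and 223, 195 and 186 FPKM at 1000 μg/mL. The highest dose lay below all 9 other libraries, with a log2 fold change of -0.86 (SE 0.20, limma adjusted p = 0.00423) against the control and -0.86 (adjusted p = 0.0164) against 500 μg/mL. It was the only member called between 500 and 1000 μg/mL over 12 libraries, where 6.74% of all genes were called higher and 3.15% lower. The call against the control held whichever library was left out, and that against 500 μg/mL was lost without 1000 μg/mL replicate 2 or 3 or without 500 μg/mL replicate 1 or 3 (-0.98 to -0.74 over all libraries left out).

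Subunit g (jgi_Trias1_69083), a small membrane subunit that in yeast helps pair ATP synthases, was lower at 500 μg/mL, with 186, 166 and 205 FPKM, and at 1000 μg/mL, with 193, 207 and 195 FPKM, against 253, 314 and 338 FPKM in the control. The log2 fold changes were -0.69 (limma adjusted p = 0.0172) at 500 μg/mL and -0.59 (adjusted p = 0.0222) at 1000 μg/mL. The second was lost without control replicate 2 or 3 or without 1000 μg/mL replicate 1 or 3 (-0.71 to -0.50), and the first without control replicate 3 or 500 μg/mL replicate 2 (-0.81 to -0.61). A gene described as the F-type ATP synthase subunit e (jgi_Trias1_75444), whose spelling keeps it outside the rule and which pairs with subunit g in yeast, had 78.3, 101 and 78.8 FPKM at 1000 μg/mL and 138, 136 and 148 FPKM in the control (log2 fold change -0.71, adjusted p = 0.00541).

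In complex V, 6 subunits were called higher at 1000 μg/mL over 11 libraries (38.3% of all genes were), and none over 12 libraries (24.3% of all genes). They were delta (jgi_Trias1_155882, 0.55), epsilon (jgi_Trias1_56458, 0.68), the stalk subunit O (jgi_Trias1_58680, 0.52), d (jgi_Trias1_277523, 0.38), f (jgi_Trias1_58667, 0.44) and j (jgi_Trias1_139783, 0.47), the value being the log2 fold change over 11 libraries. Epsilon, for example, had 523, 549 and 581 FPKM at 1000 μg/mL and 521, 356 and 329 FPKM in the control. None of the 6 was called higher against the control once libraries were centred on their medians. Subunit j was also called higher at 1000 than at 100 μg/mL over 12 libraries (log2 fold change 0.64, adjusted p = 0.0274), a call lost without 100 μg/mL replicate 1 or 1000 μg/mL replicate 1 or 2 (0.46 to 0.75 over all libraries left out). The second copy of the alpha subunit (jgi_Trias1_62045) was higher at 500 μg/mL, with 48.3, 28.7 and 46.2 FPKM against 8.39, 21.7 and 20.8 FPKM in the control (log2 fold change 1.30, adjusted p = 0.0236). That call was lost without 500 μg/mL replicate 1 (1.16) or 3 (1.20) and when libraries were centred on their medians, and its value was 0.88 (adjusted p = 0.027) without control replicate 1.

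**Figure D3:**
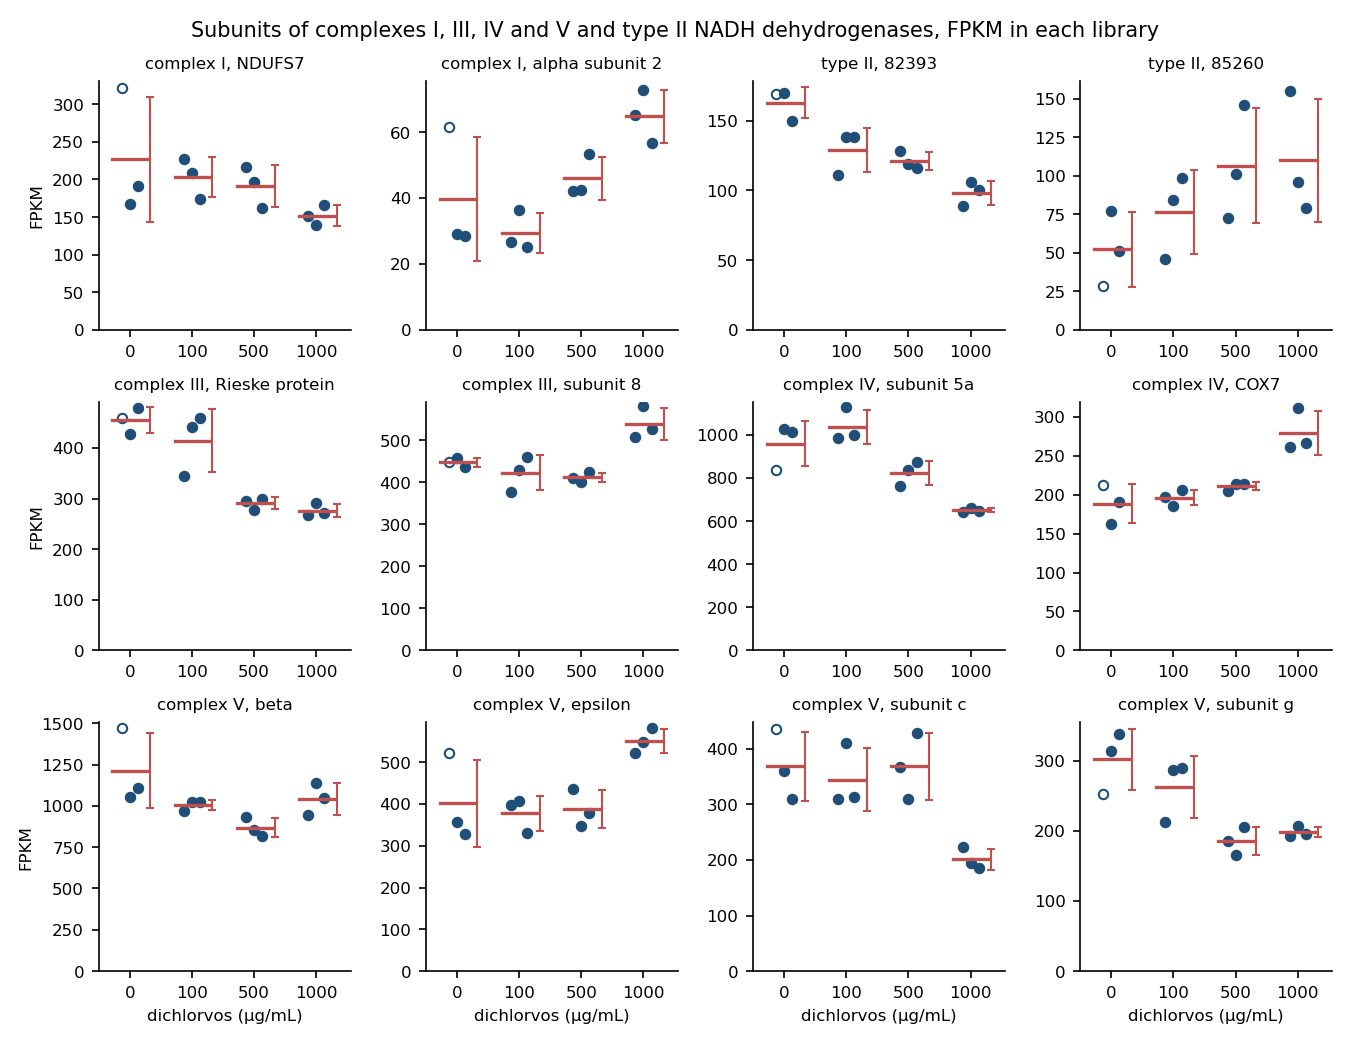
FPKM (y axes, each from 0) of 12 genes, subunits (COX7 is subunit 7 of complex IV) and type II NADH dehydrogenases, in the 12 libraries by dichlorvos dose (x axes, μg/mL). Points are libraries, the open circle is control replicate 1, red lines are means and bars 1 SD (n = 3); the Rieske protein drops at 500 and 1000 μg/mL, subunit c of complex V drops to 186 to 223 FPKM at 1000 μg/mL only, and for the beta subunit of complex V and Fe-S protein 7 of complex I (NDUFS7) control replicate 1 is the highest of the 12.

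Complex I had the most members. Of the 24 entries tested, limma called 2 higher and 0 lower at 1000 μg/mL over 12 libraries, with 24.3% and 13.2% of all genes. Over 11 it called 9 higher and 0 lower, with 38.3% and 16.3% of all genes. The median log2 fold change was -0.04 over 12 libraries and 0.30 over 11. After centring on library medians the calls were instead 0 higher and 7 lower over 12 libraries (19.6% and 22.7% of all genes), and 1 higher and 6 lower over 11 (23.3% and 30.6%), so that no entry was called in all 4 fits. The acyl carrier subunit (jgi_Trias1_60785), the most abundant, had 243, 319 and 286 FPKM at 1000 μg/mL and 358, 230 and 223 FPKM in the control (log2 fold change 0.09, adjusted p = 0.756). Flavoprotein 1 (jgi_Trias1_129754), which binds NADH, had 156, 191 and 200 FPKM at 1000 μg/mL and 443, 136 and 142 FPKM in the control, and Fe-S protein 1 (jgi_Trias1_136204), the largest peripheral subunit, had 90.4, 108 and 104 FPKM against 175, 69.1 and 76.5 FPKM. In both, the treated libraries lay between control replicate 1 and the other controls. For flavoprotein 1 its change on the log2 scale was -0.17 with it and 0.39 without it (limma adjusted p = 0.153). For Fe-S protein 1 it was 0.04 with it and 0.46 without it (adjusted p = 0.0195).

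Alpha subunit 2 (jgi_Trias1_151210), an accessory subunit, was higher at 1000 μg/mL, with 65.1, 72.8 and 56.7 FPKM against 61.4, 29.2 and 28.4 FPKM in the control (log2 fold change 0.78, limma adjusted p = 0.0451; 1.14 and adjusted p = 0.00035 over 11 libraries). Of the 12 fits with a library left out only that without control replicate 1 kept the call. Against 100 μg/mL, where it had 26.6, 36.4 and 25 FPKM, the change at 1000 μg/mL was 1.13 (adjusted p = 0.0108), and this call held whichever library was left out. The second copy of flavoprotein 1 (jgi_Trias1_127156) was higher at 500 and 1000 μg/mL. It had 131, 85.2 and 81 FPKM at 1000 μg/mL and 56.8, 43.6 and 43.9 FPKM in the control (log2 fold change 1.01, adjusted p = 0.0156). At 500 μg/mL it had 65, 89.4 and 149 FPKM (log2 fold change 0.98, adjusted p = 0.0293), and that call was lost without control replicate 2 or 3 or 500 μg/mL replicate 2 or 3 (0.66 to 1.26 over all libraries left out). The call at 1000 μg/mL was lost without 1000 μg/mL replicate 1 (0.79) and when libraries were centred on their medians (0.75).

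The lowest log2 fold change of complex I at 1000 μg/mL was that of Fe-S protein 7 (jgi_Trias1_75246), at the junction with the membrane arm, with 151, 139 and 166 FPKM against 322, 167 and 191 FPKM in the control. All treated libraries were below the controls, as in 17.2% of all genes, but the value of -0.52 was not called (limma adjusted p = 0.104). It was -0.24 without control replicate 1, also not called. After centring on library medians Fe-S protein 7 was called lower over both 12 and 11 libraries. At 100 μg/mL it had 227, 209 and 174 FPKM. Against that dose, 1000 μg/mL was called lower over 11 libraries and in both centred fits, and not over 12 libraries uncentred. Over 11 libraries the entries called higher were alpha subunits 2, 5 and 9, flavoprotein 2, Fe-S proteins 1 and 5 and the second copies of flavoprotein 1, Fe-S protein 3 and alpha subunit 9. Alpha subunit 5 (jgi_Trias1_55812) shows the pattern, with 62.9, 71.2 and 70.7 FPKM at 1000 μg/mL and 169, 37.9 and 42.5 FPKM in the control (log2 fold change 0.07 over 12 libraries, and 0.75 with adjusted p = 0.00163 over 11). In the second copy of Fe-S protein 3 (jgi_Trias1_131685) the gap was widest, with 12.3, 9.64 and 11.5 FPKM at 1000 μg/mL and 65.9, 5.6 and 6.24 FPKM in the control.

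The assembly factors of complex I also turned on that control library. Over 12 libraries limma called 0 of 6 at 1000 μg/mL, with 24.3% of all genes higher and 13.2% lower. Over 11 it called 4 higher, with 38.3% of all genes. Over 12 libraries factor 2 (jgi_Trias1_66949) was called at 500 μg/mL, with 123, 137 and 100 FPKM against 85.2, 77.2 and 58.5 FPKM in the control (log2 fold change 0.70, adjusted p = 0.0381), a call lost without control replicate 2 or 3, 100 μg/mL replicate 2, 500 μg/mL replicate 1 or 2 or 1000 μg/mL replicate 3 (0.55 to 0.82 over all libraries left out) and when libraries were centred on their medians (0.54 over 12 libraries, 0.43 over 11). Factor 5 (jgi_Trias1_143164) had 17.3, 26.1 and 21.6 FPKM at 1000 μg/mL and 32.5, 6.48 and 11.4 FPKM in the control, a log2 fold change of 0.62 (adjusted p = 0.278), which became 1.22 (adjusted p = 0.00145) without control replicate 1.

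**Figure D4:**
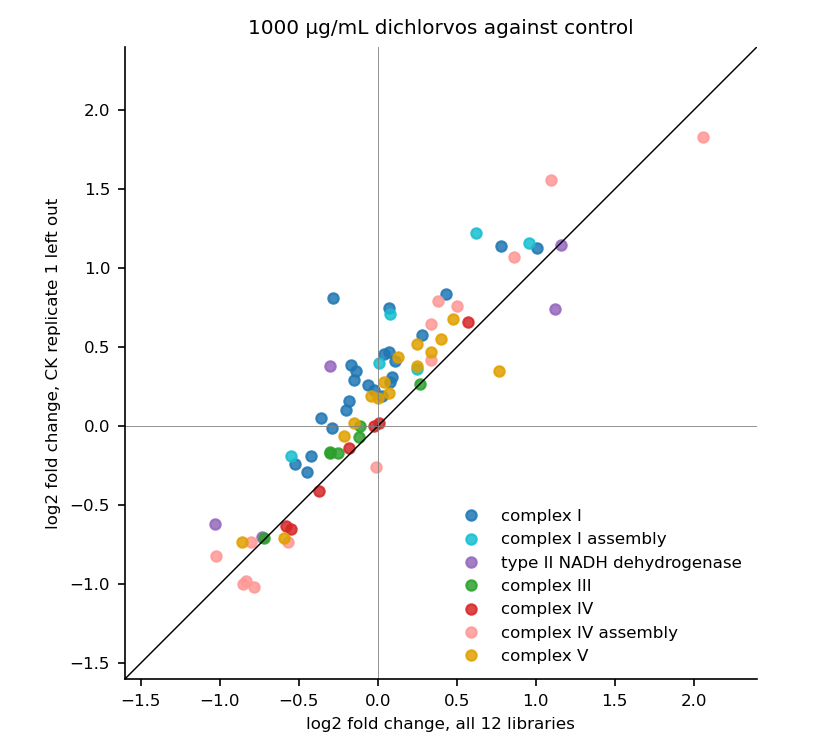
Log2 fold change of the 78 tested members at 1000 μg/mL against the control over all 12 libraries (x axis) and with control replicate 1 left out (y axis), coloured by class, with the line of equal values. Most complex I subunits and assembly factors lie above the line (class medians of -0.04 and 0.30 for complex I).

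The type II NADH dehydrogenases did not move as a group. Of 5 tested at 1000 μg/mL, 2 were lower and 2 higher over 12 libraries, with 13.2% and 24.3% of all genes. The 2 lower were called in all 4 fits, and neither of the 2 higher was. The most abundant in the control, jgi_Trias1_82393, had 169, 170 and 150 FPKM in the control, 111, 138 and 138 FPKM at 100 μg/mL, 128, 119 and 116 FPKM at 500 μg/mL, and 89, 106 and 100 FPKM at 1000 μg/mL. Each treated group lay below the control, and the change passed the test at 1000 μg/mL, with a log2 fold change of -0.73 (SE 0.16, limma adjusted p = 0.00352), whichever library was left out. Another, jgi_Trias1_69675, had 37.3, 29.9 and 23.3 FPKM at 1000 μg/mL and 109, 57 and 37.4 FPKM in the control (log2 fold change -1.03, adjusted p = 0.0274), with -0.62 (adjusted p = 0.0487) without control replicate 1. Its call was lost without 1000 μg/mL replicate 2 (-1.03) or 3 (-0.86).

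In the opposite direction, jgi_Trias1_85260 had 155, 95.7 and 79.2 FPKM at 1000 μg/mL and 28.1, 77 and 51.1 FPKM in the control, a log2 fold change of 1.12 (SE 0.40, limma adjusted p = 0.0453). Its spread within groups was wide, and the call was lost without control replicate 1 (0.74) or 3 (1.16), without 1000 μg/mL replicate 1 (0.84) or 2 (1.19), without 100 μg/mL replicate 2 (1.12) and without 500 μg/mL replicate 2 (1.12). It was also lost when libraries were centred on their medians. At 1000 μg/mL the mean of this gene was 110 ± 39.7 FPKM and that of jgi_Trias1_82393 was 98.5 ± 8.76 FPKM (SD, n = 3 each), while in the control they were 52.1 ± 24.5 and 163 ± 11.3 FPKM. The gene jgi_Trias1_57333 matched its KEGG entry with a score of 84 bits, against 1025 bits for jgi_Trias1_82393. The level of jgi_Trias1_57333 was low, with 2.42, 3.53 and 2.77 FPKM at 1000 μg/mL and 0.70, 1.15 and 0.43 FPKM in the control (log2 fold change 1.16, adjusted p = 0.00821). That call was lost when libraries were centred on their medians (0.90). For jgi_Trias1_62885, with 2.77, 3.73 and 2.84 FPKM at 1000 μg/mL and 11.9, 1.54 and 2.91 FPKM in the control, nothing was called at 1000 μg/mL over 12 libraries (log2 fold change -0.30, adjusted p = 0.659). Over 11 libraries it was called higher at 100 and 500 μg/mL.

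The genes closest to an alternative oxidase were listed at or near 0 in all groups. The closest protein match of a pair of genes without a KEGG entry was an alternative oxidase. One of them, jgi_Trias1_154999, was listed at 0 except for 0.21 and 0.22 FPKM in 500 μg/mL replicates 2 and 3. The other, jgi_Trias1_73483, was listed at 0 except for 0.30 FPKM in 500 μg/mL replicate 1. A pair of members was also below the filter of 1 FPKM and was not tested. They were the type II NADH dehydrogenase jgi_Trias1_205609, with 0.24, 0.25 and 0.62 FPKM at 1000 μg/mL and 0.15, 0.12 and 0.36 FPKM in the control, and the second copy of complex I beta subunit 8, jgi_Trias1_70505, with at most 0.36 FPKM in any library. No entry for a subunit that fungi usually encode in mitochondrial DNA, such as cytochrome b, was among the members, and these subunits are not analysed here.

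The contrasts between doses compare treated libraries with each other, and control replicate 1 enters them only through the shared estimate of spread. Between 100 and 1000 μg/mL, limma over 12 libraries called 8 members higher and 9 lower at 1000 μg/mL, where 17.1% of all genes were called higher and 8.68% lower. Of these, 4 of the 8 and 1 of the 9 kept the call whichever library was left out: COX17, COA4, alpha subunit 2 of complex I and jgi_Trias1_57333, and subunit 5a of complex IV. The calls included 4 complex IV assembly factors that were higher (COX17, COX19, COA4 and COA6) and the same 6 that were lower against the control. Over 11 libraries the counts were 17 and 13, with 27.5% and 15.9% of all genes, and with a log2 fold change above 1 they were 4 and 0 over 12 libraries, with 13.0% and 5.48%. Between 500 and 1000 μg/mL limma over 12 libraries called 0 members higher and 1 lower, with 6.74% and 3.15% of all genes. At an unadjusted p under 0.05 it was 9 higher and 4 lower, where 1366 and 765 of the 8916 genes tested were. Over 11 libraries 9 were called higher and 4 lower, with 15.2% and 8.65% of all genes. With a log2 fold change above 1 no member was called between these doses over 12 libraries, with 5.42% and 2.12% of all genes. Between 100 and 500 μg/mL limma over 12 libraries called 0 members in either direction, with 2.03% and 0.336% of all genes called. At an unadjusted p under 0.05 it was 5 higher and 4 lower, where 780 and 418 of the 8916 genes tested were. Over 11 libraries 3 members were called higher at 500 than at 100 μg/mL (COX17, COA4 and alpha subunit 2 of complex I) and 2 lower (COX15 and the Rieske protein), with 6.68% and 3.02% of all genes.

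Several genes that feed or serve the complexes passed the test. Complex II, the succinate dehydrogenase that feeds electrons to ubiquinone, is outside the rule. Its list takes in succinate dehydrogenase assembly factors 1 and 2 and further flavoprotein entries at lower levels. For complexes I and IV the assembly factors are classes of their own, so the counts are not alike. Of the 9 entries tested on this list, 6 were higher and 0 lower at 1000 μg/mL, where 24.3% of all genes were higher and 13.2% lower. Their median log2 fold change was 0.85, and neither assembly factor was called. The iron-sulfur subunit of complex II (jgi_Trias1_51244) had 705, 656 and 710 FPKM at 1000 μg/mL and 405, 342 and 333 FPKM in the control (log2 fold change 0.94, SE 0.16, limma adjusted p = 0.000668). The flavoprotein (jgi_Trias1_127843) had a log2 fold change of 0.85 (adjusted p = 0.00155), the membrane anchor (jgi_Trias1_60713) of 0.85 (adjusted p = 0.00108) and the cytochrome b560 subunit (jgi_Trias1_67921) of 0.86 (adjusted p = 0.00321). After centring on library medians 4 of the 9 were called higher over 12 libraries, where 19.6% of all genes were, and 2 over 11, where 23.3% were. At 100 μg/mL over 11 libraries without centring, the iron-sulfur subunit (0.61, adjusted p = 0.0131), the flavoprotein (0.51, adjusted p = 0.0409) and the membrane anchor (0.55, adjusted p = 0.0264) were called higher. The b560 subunit was not (0.36, adjusted p = 0.19), and 13.5% of all genes were called higher there. A further flavoprotein entry at a low level, jgi_Trias1_67943, had 32.4, 31.3 and 27.7 FPKM at 1000 μg/mL and 0.21, 0.35 and 0.17 FPKM in the control (log2 fold change 4.66, adjusted p = 8.89e-07). It was named after its values were seen.

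The electron transfer flavoproteins, which bring electrons from fatty acid oxidation to ubiquinone, were called higher at the lowest dose. All 3 entries were called at 100 μg/mL, 2 at 500 μg/mL and 1 at 1000 μg/mL, with 5.26%, 13.5% and 24.3% of all genes called higher. When each library was left out in turn the count at 100 μg/mL was 3 without control replicate 1, 1 without 100 μg/mL replicate 2 and 2 in the other fits. It ran from 1 (without 500 μg/mL replicate 2) to 3 (without control replicate 1) at 500 μg/mL, and from 1 to 2 (without control replicate 1 or 2) at 1000 μg/mL. The beta subunit (jgi_Trias1_185537) had 567, 581 and 600 FPKM at 1000 μg/mL, and its change on the log2 scale was 0.84 (limma adjusted p = 0.00827; not called without 100 μg/mL replicate 2, at 0.76) at 100 μg/mL and 0.87 (adjusted p = 0.00133) at 1000 μg/mL. The dehydrogenase that passes the electrons to ubiquinone (jgi_Trias1_186361) had 195, 246 and 193 FPKM in the control, 389, 520 and 444 FPKM at 100 μg/mL, 316, 364 and 362 FPKM at 500 μg/mL, and 293, 278 and 279 FPKM at 1000 μg/mL. Its libraries were highest at 100 μg/mL and lowest among the treated groups at 1000 μg/mL, and no treated library reached down to the control. The change on the log2 scale was 1.09 at 100 μg/mL (adjusted p = 0.00181).

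Cytochrome c (jgi_Trias1_61468), the carrier between complexes III and IV, was lower at the highest dose. It had 1762, 2198 and 2021 FPKM in the control, 1491, 1767 and 1947 FPKM at 100 μg/mL, 1194, 1490 and 1510 FPKM at 500 μg/mL, and 1065, 897 and 914 FPKM at 1000 μg/mL. The highest dose lay below all other libraries, with a log2 fold change of -1.05 (SE 0.19, limma adjusted p = 0.00104). At 500 μg/mL cytochrome c was not called over 12 libraries (-0.51, adjusted p = 0.0825) and was called lower over 11 (-0.60, adjusted p = 0.0165). In ubiquinone biosynthesis 0 of 7 entries tested were higher and 2 lower at 1000 μg/mL (limma; 24.3% and 13.2% of all genes). They were COQ7 (jgi_Trias1_144878), with 55.8, 56.3 and 56.1 FPKM against 92.5, 108 and 118 FPKM in the control (log2 fold change -0.90, adjusted p = 0.000744), and a COQ6 entry (jgi_Trias1_63983), with 17.3, 12.8 and 20.9 FPKM against 48.6, 61.5 and 79 FPKM (log2 fold change -1.83, adjusted p = 0.000159). The most abundant COQ6 entry (jgi_Trias1_458074) was not called at 1000 μg/mL (log2 fold change 0.56, adjusted p = 0.075). COQ4 (jgi_Trias1_54270) was not called there over 12 libraries (-0.47, adjusted p = 0.277) and was called lower over 11 (-0.93, adjusted p = 0.00111).

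The carrier that exchanges ADP for ATP across the inner membrane (jgi_Trias1_53680) had the highest level of these lists. It had 8710, 8151 and 7734 FPKM in the control, 7089, 7083 and 7147 FPKM at 100 μg/mL, 4916, 4999 and 4464 FPKM at 500 μg/mL, and 3573, 3349 and 3514 FPKM at 1000 μg/mL, each dose below the one before. The change on the log2 scale was -1.24 (SE 0.20, limma adjusted p = 0.000449) at 1000 μg/mL and -0.77 (adjusted p = 0.017) at 500 μg/mL, the second not called without 500 μg/mL replicate 2 (-0.81) or 3 (-0.72). The main phosphate carrier (jgi_Trias1_27969) had 2141, 1191 and 1439 FPKM at 1000 μg/mL and 2330, 3325 and 2723 FPKM in the control (log2 fold change -0.84, adjusted p = 0.0171), a call lost without control replicate 2 (-0.71) or 1000 μg/mL replicate 2 (-0.65) or 3 (-0.79). Of the 12 entries tested on this list, 1 was higher and 2 lower at 1000 μg/mL (24.3% and 13.2% of all genes), and the list's share of a library's FPKM was 0.600 to 0.739% at 1000 μg/mL and 1.25 to 1.35% in the control.

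Among the 21 genes of mitochondrial protein import, 1 was higher and 2 lower at 1000 μg/mL (24.3% and 13.2% of all genes), with a median log2 fold change of -0.10. The most abundant, a TIM44 entry (jgi_Trias1_145536), was not called (0.64, limma adjusted p = 0.257). Among the other proton pumps of the cell, of the 15 entries of the V-type ATPase, which acidifies the vacuole, 4 were higher and 0 lower at 1000 μg/mL over 12 libraries (24.3% and 13.2% of all genes) and 11 higher over 11 libraries (38.3% of all genes). Its most abundant entry, the proteolipid subunit (jgi_Trias1_60274), had a log2 fold change of 0.44 (adjusted p = 0.0412), a call kept only without control replicate 1 when each library was left out in turn (0.38 to 0.47 in the others). The plasma membrane proton pump (jgi_Trias1_146486) had 1853, 1131 and 1209 FPKM at 1000 μg/mL and 4610, 5018 and 4350 FPKM in the control, a log2 fold change of -1.77 (SE 0.23, adjusted p = 8.29e-05). At 500 μg/mL it had 4144, 4632 and 3441 FPKM and was not called. No test of the difference between these lists and the complexes was made.

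**Figure D5:**
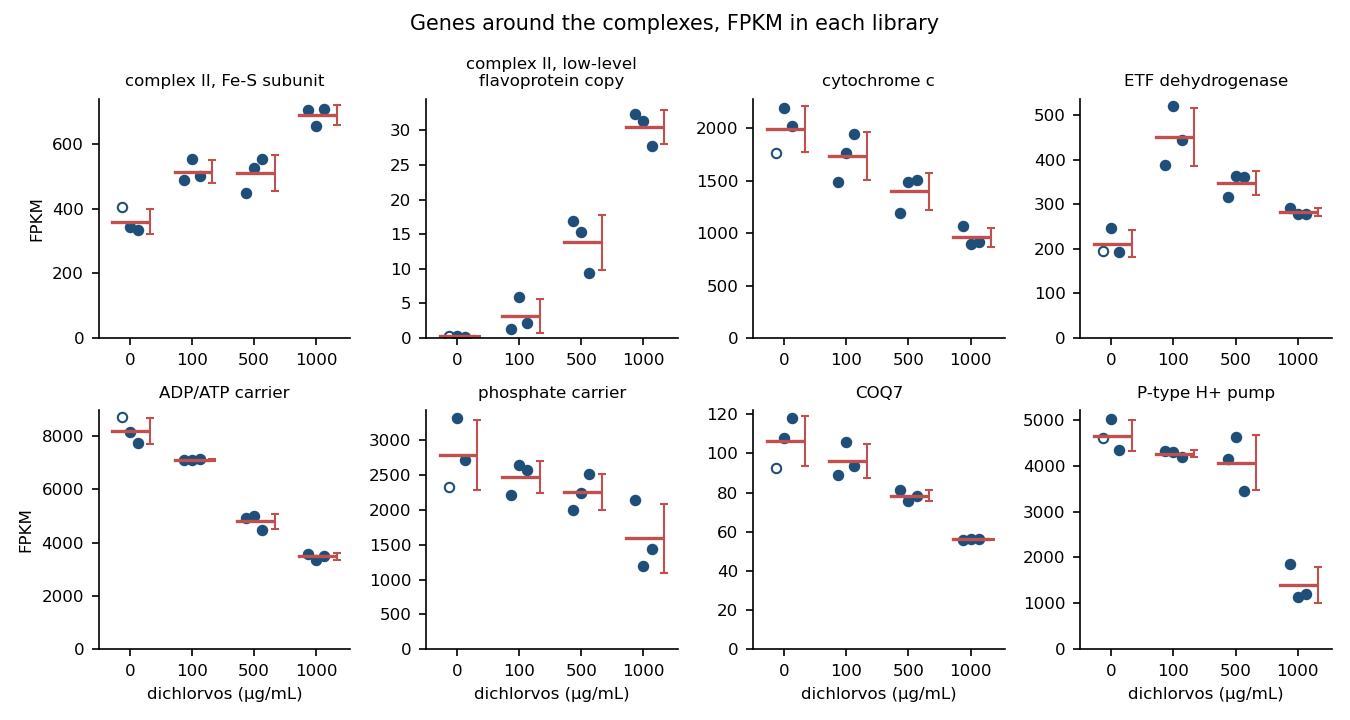
FPKM (y axes, each from 0) of 8 genes around the complexes in the 12 libraries by dichlorvos dose (x axes, μg/mL). Points are libraries, the open circle is control replicate 1, red lines are means and bars 1 SD (n = 3); the ADP/ATP carrier and cytochrome c decline with dose, the complex II iron-sulfur subunit is at 656 to 710 FPKM at 1000 μg/mL against 333 to 405 FPKM in the control, and the proton pump drops at 1000 μg/mL only.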

How the data were processed

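RNA of 12 mycelium libraries (4 groups of 3) was sequenced by the study. The deposited values are FPKM per gene, which the authors computed; the submitters' processing notes name BWA, Bowtie and RSEM, with no version given in the sources used here. Counts and read depth are not given, so no interval for counting error was computed. Limma replaced the NOISeq rule of the study (probability above 0.8 and absolute log2 fold change above 1). That rule was recomputed from its definition on FPKM and kept as an alternative. Genes with a mean of at least 1 FPKM (8916 of 11647) were tested on log2(FPKM + 1), a scale that understates changes of low genes, with limma 3.58.1 (R 4.3.3, eBayes with trend, 4 groups in 1 fit) and Benjamini-Hochberg adjustment over all genes. The script was tested on simulated data. The members and lists were chosen with earlier results of these data known. Genes named are the type II NADH dehydrogenases, the highest, largest and smallest of each class, members called with a change above 1, those below the filter, the highest of each other list, and further called or contrasting members and list genes picked after their values were seen. Other pseudocounts, filters, scalings and left-out libraries were tried. The RefSeq list matched 0 identifiers and was not used, and no sequence was used here.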

Additional observations from a re-analysis of the deposited data

How the results depend on the processing

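Numbers in this part are counts of members called by limma unless another rule is named. Where no share of all genes stands beside a count, the count shows only how it moved with the setting. The largest shifts came with control replicate 1 and with centring on the library median. Centred over 12 libraries, 1 member was higher and 14 lower at 500 μg/mL, and 3 higher and 25 lower at 1000 μg/mL (19.6% and 22.7% of all genes). Centred over 11, 0 were higher and 5 lower at 100 μg/mL, and 4 higher and 35 lower at 500 μg/mL. At 1000 μg/mL 5 were higher and 31 lower (23.3% and 30.6% of all genes). No share of all genes is given for the centred fits at 100 and 500 μg/mL, so those counts are not a result about the members. Between doses, centring over 11 libraries gave 1 higher and 5 lower for 500 against 100 μg/mL, and 3 higher and 7 lower for 1000 against 500 μg/mL. For 1000 against 100 μg/mL it gave 8 higher and 21 lower, and 37 in the F-test. In that setting subunit 6a of complex IV (jgi_Trias1_158837), at 0.01 before, was called at -0.46. Fitting 2 groups alone gave 1 higher and 0 lower at 500 μg/mL, 4 higher and 5 lower at 1000 μg/mL, 1 higher and 1 lower for 500 against 100 μg/mL, 5 higher and 5 lower for 1000 against 500 μg/mL, and 15 higher for 1000 against 100 μg/mL. Requiring an absolute log2 fold change above 1 left 2 higher and 0 lower at 500 μg/mL, 5 higher and 2 lower at 1000 μg/mL, 0 lower for 1000 against 500 μg/mL, and 4 higher and 0 lower for 1000 against 100 μg/mL. The NOISeq rule called 1 higher and 0 lower at 500 μg/mL and 1 higher and 0 lower at 1000 μg/mL. Without control replicate 1 it called 2 higher and 0 lower, and 5 higher and 2 lower. Without the variance trend 3 were lower at 500 μg/mL. The cause of these differences was not tested. The pseudocount, the filters and the TPM scaling left every count of members within 1.5 times its main value.

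Over the 12 fits that each left out a library, 0 to 2 members were higher and 0 lower at 100 μg/mL, 2 to 11 higher and 0 to 8 lower at 500 μg/mL, and 4 to 27 higher and 9 to 14 lower at 1000 μg/mL. Without control replicate 1 it was 27 higher and 14 lower at 1000 μg/mL, with 38.3% and 16.3% of all genes. For 500 against 100 μg/mL the ranges were 0 to 3 higher and 0 to 2 lower, for 1000 against 500 μg/mL 0 to 9 and 0 to 4, for 1000 against 100 μg/mL 4 to 17 and 2 to 13, and the F-test called 6 to 35. Single genes also turned: for the second copy of Fe-S protein 3 (jgi_Trias1_131685) the log2 fold change at 1000 μg/mL ran from -0.86 to 0.81, and for alpha subunit 5 (jgi_Trias1_55812) at 100 μg/mL from -0.53 to 0.53, in both cases positive and called only without control replicate 1. Of the members called at 1000 μg/mL, 3 of 8 higher and 8 of 13 lower kept the call in every one of these fits.

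The replicate numbers shared by the groups do not come with a stated pairing. Deviations from the group means correlated between libraries of the same number at -0.319 to 0.495, above 0.1 in 7 of 18 pairs, and the same number was the best match in 13 of 36 cases. With the replicate number as a block, 4 members were higher and 3 lower at 500 μg/mL, and 7 higher and 13 lower at 1000 μg/mL. The block gave 0 at 100 μg/mL and 17 in the F-test. Absolute read depth is unknown for FPKM without counts, so what depth limits for the members listed near 0 FPKM cannot be given. Relative depth was estimated from the steps between low FPKM values. It was 0.826 of that of control replicate 2 in control replicate 1, and 0.978 to 1.02 in the others. The part of this in the results was not tested.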
